A study of Mus musculus with 46 samples.

Results

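Ccng2, Txnip, Btg1, Btg2, Arrdc3, Arrdc4, Foxo1 and Foxo3 are grouped here as genes linked to the slowing of growth. Their transcripts and ribosome footprints were followed in cultured mouse pancreatic cancer cells. These 8 genes were chosen by symbol, and 6 of them are among the 9857 symbols that all tables share. Btg2 and Arrdc4 are not listed in the tables, so that for them only promoter sequence is described. The genes were named with earlier results of these data in view, the transcript level of Ccng2 in the 2 genotypes with DMSO among them. For this reason the differences between Ctu1 iKO and control cells with DMSO are given as descriptions with no test, and the adjusted p-values of the other comparisons describe genes that were chosen with results known.

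EPP2 is a murine pancreatic cancer cell line, and the cells used were a single cell-derived clone with a doxycycline-inducible Cas9 (iCas9). In Ctu1 iKO cells, a pair of guide RNAs directed Cas9 to Ctu1, a subunit of the cytosolic thiouridylase that modifies the wobble uridine of certain tRNAs, and 300 ng/mL doxycycline was given for 4 days, so these cultures are pools of edited cells of 1 clone. Control cells, labelled WT, carried guides against non-coding regions or received no doxycycline, and which of these was used here is not given in the sources used here. Cultures of each genotype received DMSO or 300 nM torin 1, an inhibitor of the mTOR kinase in both of its complexes, for 2 h in DMEM/F-12 with serum. Ribosome footprints (monosome-protected fragments after RNase I) and stranded poly(A) RNA libraries from the same lysates were sequenced for 6 replicates of control with DMSO, 6 of control with torin 1, 5 of Ctu1 iKO with DMSO and 6 of Ctu1 iKO with torin 1 as the labels number them, which gave 46 libraries. The labels do not say that replicates were separate cultures. For ribosome profiling the study's methods speak of only 2 independent replicates, made a day apart, whereas its figure legends give 5 or 6 independent experiments. For RNA sequencing a figure legend of the study gives 2 independent experiments. Each labelled replicate is counted and called a culture here, so that every n, SE and p measures the spread between these libraries, which may be technical in part.

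FoxO transcription factors such as Foxo1 and Foxo3 are held in the cytoplasm when AKT phosphorylates them, and AKT itself is activated through mTOR complex 2, so that inhibitors of this pathway let FoxO factors enter the nucleus. Ccng2 encodes cyclin G2, an atypical cyclin associated with cell cycle arrest, and both Ccng2 and Btg1 are known FoxO targets. Btg1 and Btg2 are antiproliferative proteins that bind the CCR4-NOT deadenylase. Txnip binds thioredoxin and lowers glucose uptake, its transcription responds to glucose through MondoA and Mlx at E boxes, and it belongs with Arrdc3 and Arrdc4 to the alpha-arrestins, adaptors that bring ubiquitin ligases to membrane proteins.

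On GRCm38, Ccng2 lies at chr5:93267257-93276231 on the plus strand and Txnip at chr3:96557957-96561883 on the plus strand. Btg1 lies at chr10:96617006-96622809 on the plus strand, Foxo1 at chr3:52268336-52353221 on the plus strand, Foxo3 at chr10:42181841-42276755 on the minus strand and Arrdc3 at chr13:80883384-80896042 on the plus strand. The promoters of all 8 genes (250 bases before to 50 bases after each start, RefSeq, GRCm38.p6) were searched on both strands for GTAAACA, the core of FoxO binding sites, for the E box CACGTG and for the AP-1 site TGACTCA. The FoxO core was found for Txnip and Btg1 and the E box for Arrdc4. The stretches that hold these letters are shown because they are the motifs of the factors above, with the motif in capitals, read 5′ to 3′ on the strand of the gene, on which the Btg1 match is the reverse complement of GTAAACA.
Txnip, chr3:96557825-96557854, plus strand: ttggaggcctgGTAAACAagggccaagtag
Btg1, chr10:96616786-96616815, plus strand: gggggtttattTGTTTACaagcagattacg
Arrdc4, chr7:68749414-68749443, minus strand: aaaggtcctgtgCACGTGcactatggtgtc
The matches start 121 bases before the start site in Txnip, 204 bases before it in Btg1 and 193 bases before it in Arrdc4. Of 32851 promoters of the same length, 3.65% held the FoxO core, 7.15% the E box and 5.2% the AP-1 site. No match was found in the windows of the other members, Ccng2 among them.

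The coding sequences were also compared for AAA, CAA and GAA, the codons read by tRNAs that carry the modification made by Ctu1. The densest stretch of 10 codons within 1 exon is shown for the 4 members whose footprints rose with torin 1 in control cells, with those codons in capitals (GRCm38, GENCODE M21).
Ccng2, codons 26 to 35, chr5:93268697-93268726, plus strand: GAACAAGAAcagagatacCAAcctcggGAA
Txnip, codons 33 to 42, chr3:96558332-96558361, plus strand: gtgGAAgtgtgtGAAgttacccgagtcAAA
Btg1, codons 51 to 60, chr10:96618278-96618307, plus strand: cattacAAAcatcactggttcccaGAAaag
Foxo3, codons 139 to 148, chr10:42274990-42275019, minus strand: gcggctgggggctctgggCAAccaaggAAA
The 3 codons together made up 11% of the coding sequence of Ccng2, which lay at percentile 89.3 of the 9588 genes with a coding sequence, around a median of 6.13%. The share was 7.97% in Arrdc3, 6.55% in Txnip and 5.85% in Btg1. It was low in the FoxO factors, at 2.76% in Foxo1 and 1.93% in Foxo3, which lay at percentiles 9.94 and 3.62.

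Total counts ran from 4602092 to 52907878 per footprint library and from 129881946 to 325494304 per RNA-seq library. The lowest member count in a library was 18 footprint counts (Foxo1), and the lowest for Ccng2 was 28. Levels are given as CPM, the counts of a gene per 1e+06 counts of its library, with library totals scaled by TMM normalization. Ctu1 footprints were 1.6 to 3.63 CPM in control (n = 6) and 1.3 to 2.25 CPM in Ctu1 iKO cultures (n = 5) with DMSO, so that the Ctu1 level overlapped and does not check the genotype labels. Markers of mesenchymal cells were all listed (5 of 5, Vim and Fn1 among them), 4 of 8 epithelial markers were listed (Krt8, Krt18, Krt19 and Sox9, but not Epcam, Cdh1, Krt7 or Cldn4), as were 4 of 6 fibroblast markers, and none of the acinar, islet, leukocyte or endothelial markers was.

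Before the results, the treatment labels were checked along the torin 1 effect on RNA in replicates 1 and 2, on a scale where the mean of the DMSO libraries was -1 and that of the torin 1 libraries 1. Replicates 1 and 2 set this scale, so that their own side was largely fixed and only later replicates are checked by it. Of the 23 RNA-seq libraries, 6 lay on the other side from their label. These were the libraries labelled control torin 1 replicates 5 (-1.09) and 6 (-1.16), Ctu1 iKO DMSO replicates 4 (0.92) and 5 (0.68), and Ctu1 iKO torin 1 replicates 5 (-0.61) and 6 (-0.62). Of the 23 footprint libraries, 1 lay on the other side, the library labelled control torin 1 replicate 3 (-0.07). Along the footprint effect of replicates 1 and 2, 9 RNA-seq and 3 footprint libraries lay on the other side. No library was given another label. RNA-seq values below come from replicates 1 to 3 (n = 3 per group) and footprint values from all replicates, and RNA-seq replicates 4 to 6 are described apart.

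**Figure D1:**
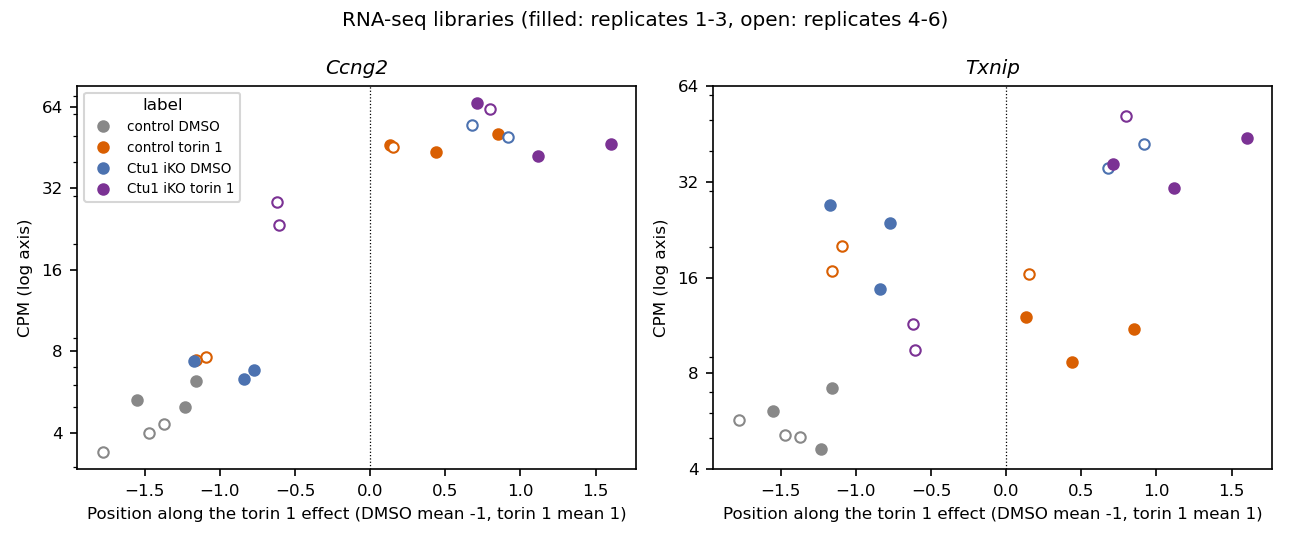
RNA-seq CPM of Ccng2 and Txnip (vertical, log axis) against the position of the library along the RNA torin 1 effect (horizontal, DMSO mean -1, torin 1 mean 1), each point 1 RNA-seq library coloured by its label, filled for replicates 1 to 3 and open for replicates 4 to 6. Of the 23 libraries, 6 sit on the other side of 0 from their label, and Ccng2 is at 7.63 and 7.46 CPM in the libraries labelled control torin 1 replicates 5 and 6.

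Torin 1 for 2 h raised Ccng2 more than any other member in both genotypes and both assays. In control cells, Btg1, Foxo3 and Txnip rose in footprints and in RNA by smaller amounts. By fits without a replicate term, Foxo1 and Arrdc3 passed the test in neither assay. In footprints 4 of 6 members were called higher in control cells, where 2.91% of all tested genes were. In RNA the same count, 4 of 6, stood against 5.69% of all tested genes. The median log2 change of the 6 members was 0.92 in footprints and 0.83 in RNA, and over all tested genes it was 0.01 and 0.00. The threshold for a call was an adjusted p of 0.05 (edgeR quasi-likelihood test, Benjamini-Hochberg over all tested genes). The treatment groups of Ccng2, Btg1 and Foxo3 did not overlap in footprints, where those of 1.99% of all tested genes were higher without overlap, and in RNA those of these 3 genes and of Txnip did not, where 15.1% of all tested genes were higher without overlap. In bulk samples fewer cells of a type and less RNA per cell cannot be told apart.

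Footprints of Ccng2 in control cells were 2.12 CPM in the lowest, 2.67 at the median and 3.49 in the highest culture with DMSO, and 15.3, 17.3 and 26.0 CPM with torin 1 (n = 6 and 6). The groups did not overlap, and torin 1 replicate 1 was the highest library. The log2 change was 2.76 ± 0.18 (SE), a 6.76-fold rise with a 95% interval of 5.19 to 8.79 (adjusted p = 1.17e-07, edgeR), rank 3 by rise among 9856 genes. In RNA, Ccng2 stood at 6.2, 4.97 and 5.31 CPM with DMSO and at 50.7, 43.6 and 46.1 CPM with torin 1. These groups were far apart as well, with a log2 change of 3.07 ± 0.11 (SE, 8.42-fold, adjusted p = 6.49e-05, edgeR), the largest rise of 9617 genes.

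Btg1 had the highest footprint level per coding length of the members. Its footprints were 26.2, 30.7 and 32.8 CPM (lowest, median, highest) in control cells with DMSO and 51.6, 59.4 and 65.5 CPM with torin 1. The 2 groups did not overlap, and Btg1 footprints rose by 0.97 ± 0.10 (SE, log2; 1.96-fold, adjusted p = 8.79e-06, edgeR). Btg1 RNA was 45.0, 40.3 and 42.3 CPM with DMSO and 92.4, 91.1 and 91.2 CPM with torin 1, a rise of 1.09 ± 0.06 (SE, log2; adjusted p = 0.000401, edgeR) with a narrow spread between replicates.

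Txnip, the thioredoxin-binding protein, rose less evenly. Its footprints in control cells were 2.63, 4.23 and 6.0 CPM with DMSO and 4.97, 7.82 and 11.4 CPM with torin 1 (lowest, median, highest), so that the groups overlapped at torin 1 replicate 2. The log2 change was 0.95 ± 0.23 (SE; 1.93-fold, adjusted p = 0.0192, edgeR), and over replicates 1 to 3 alone it was 0.43 ± 0.31 (adjusted p = 0.692). Txnip RNA was 7.18, 4.61 and 6.11 CPM with DMSO and 11, 8.71 and 12 CPM with torin 1. These RNA groups did not overlap, and the log2 change was 0.81 ± 0.18 (SE; adjusted p = 0.0293, edgeR). Without control DMSO replicate 2 or 3, or without torin 1 replicate 1 or 3, the adjusted p of this RNA difference was 0.0571 to 0.0814, and with replicates 1 and 2 alone it was 0.0587.

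Of the FoxO factors, Foxo3 was called in both assays and Foxo1 in neither, and the 2 genes were not tested against each other. Footprints of Foxo3 in control cells were 23.7, 36.4 and 41.0 CPM with DMSO and 54.2, 61.4 and 80.1 CPM with torin 1 (lowest, median, highest), with no overlap. Foxo3 footprints rose by 0.89 ± 0.15 (SE, log2; 1.86-fold, adjusted p = 0.00109, edgeR), and its RNA rose by 0.84 ± 0.08 (adjusted p = 0.00184), from 27.9, 26.3 and 26.9 CPM to 54.5, 47.8 and 45.2 CPM. Foxo1 footprints were 2.74, 3.15 and 3.73 CPM with DMSO and 3.17, 3.88 and 6.07 CPM with torin 1, and these groups overlapped. For Foxo1 the log2 difference was 0.43 with a 95% interval of -0.04 to 0.90 in footprints (adjusted p = 0.289, edgeR) and 0.05 with an interval of -0.49 to 0.58 in RNA (adjusted p = 0.933). Foxo1 had the fewest counts of the members.

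Arrdc3, the alpha-arrestin listed here, overlapped between treatments in footprints, at 6.87, 8.63 and 13.4 CPM with DMSO and 5.96, 10.9 and 13.5 CPM with torin 1 (lowest, median, highest). Its log2 difference was 0.13 ± 0.20 (SE; 95% interval -0.31 to 0.56, adjusted p = 0.794, edgeR). Arrdc3 RNA was 25.5, 19.3 and 29.9 CPM with DMSO and 31.7, 29.9 and 31.6 CPM with torin 1, a difference of 0.30 ± 0.15 (adjusted p = 0.24). With the replicate number as a block, by which RNA-seq libraries of the same number deviated together, the Arrdc3 difference was 0.32 ± 0.08 (adjusted p = 0.00935, edgeR).

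**Figure D2:**
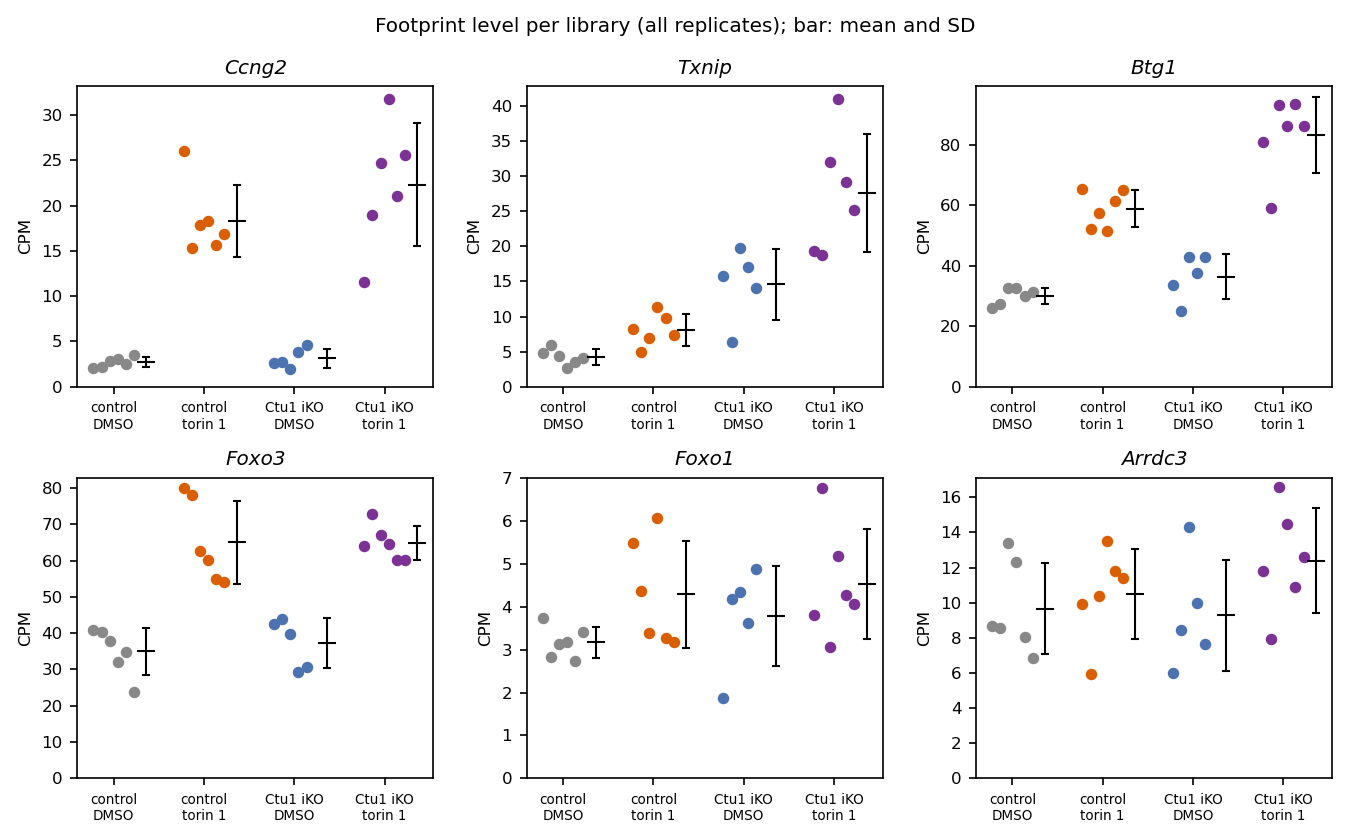
Footprint CPM (vertical axes) of the 6 listed members in control and Ctu1 iKO cultures with DMSO or torin 1, each point 1 library and each bar beside the points the mean with its SD (n = 6, 6, 5 and 6). Ccng2 moves from 2.12-3.49 CPM to 15.3-26.0 CPM with torin 1 in control cells, while Txnip is also higher in Ctu1 iKO cultures.

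**Figure D3:**
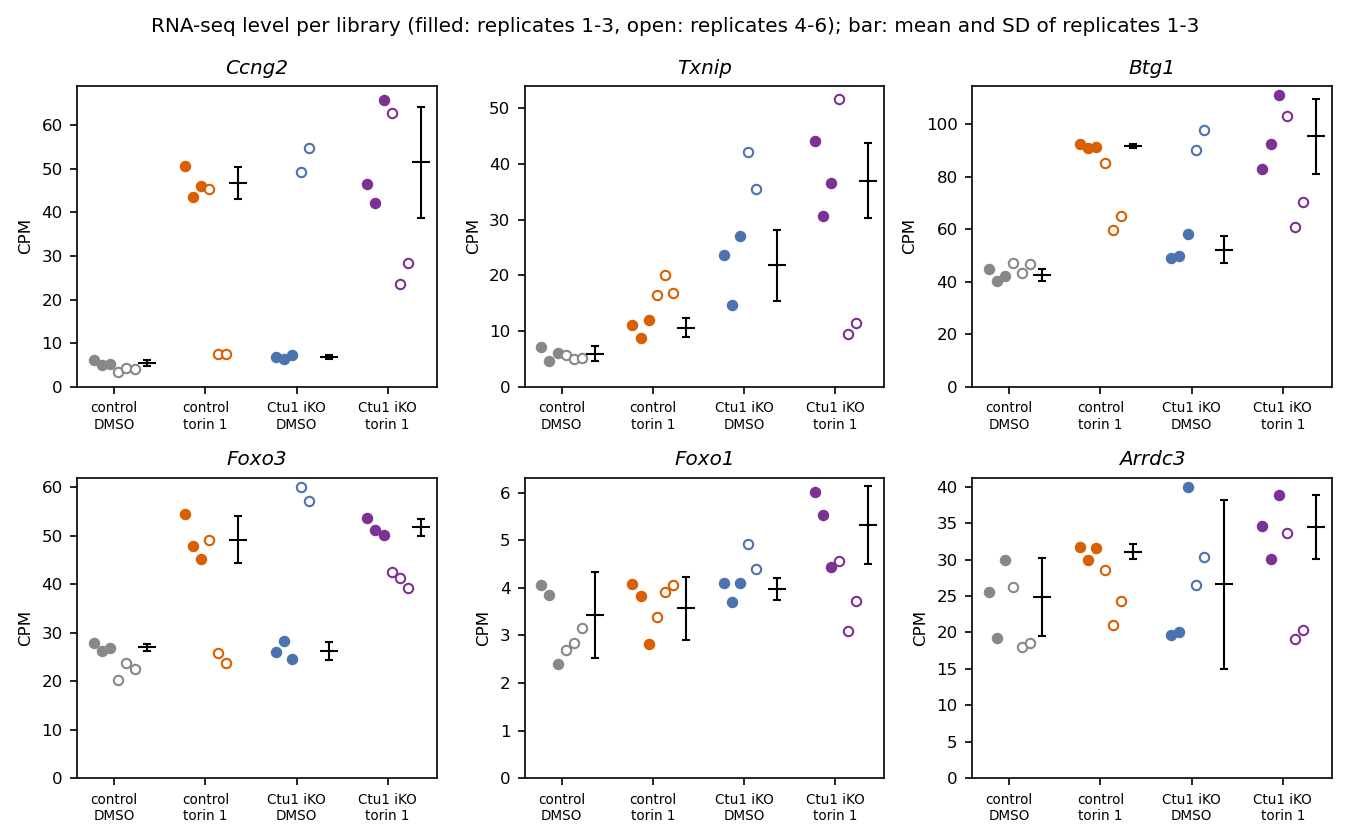
RNA-seq CPM (vertical axes) of the same 6 members by labelled group, each point 1 library, with replicates 1 to 3 and replicates 4 to 6 drawn differently and the mean and SD of replicates 1 to 3. Ccng2 stands at 43.6 to 50.7 CPM in replicates 1 to 3 of control with torin 1, and at 7.63 and 7.46 CPM in the libraries labelled replicates 5 and 6 of that group.

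In Ctu1 iKO cells, torin 1 raised Ccng2, Btg1 and Foxo3 in both assays, with 3 of 6 members called higher in footprints, where 3.48% of all tested genes were, and 3 of 6 in RNA, where 3.73% were. Footprints of Ccng2 were 2.63, 2.69, 1.94, 3.8 and 4.63 CPM with DMSO and 11.6, 22.9 and 31.7 CPM (lowest, median, highest) with torin 1. The groups of Ccng2, Btg1 and Foxo3 did not overlap in footprints, where those of 3.39% of all tested genes were higher without overlap. The Ccng2 change of 2.81 ± 0.28 (SE, log2; 7-fold, adjusted p = 1.15e-05, edgeR) was the largest rise of 9855 genes. Ccng2 RNA went from 6.84, 6.35 and 7.39 CPM to 46.5, 42.1 and 65.9 CPM, by 2.91 ± 0.18 (adjusted p = 0.00072), again the largest rise.

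Btg1 footprints in Ctu1 iKO cells were 33.7, 25.2, 43.1, 37.6 and 42.8 CPM with DMSO and 59.3, 86.2 and 93.6 CPM (lowest, median, highest) with torin 1, without overlap. The log2 change was 1.18 ± 0.16 (SE; adjusted p = 0.000236, edgeR) in footprints and 0.87 ± 0.13 in RNA (48.9, 49.7 and 58.1 against 82.9, 92.3 and 111.0 CPM; adjusted p = 0.0111). Without Ctu1 iKO DMSO replicate 1 or 2, the RNA change of Btg1 had adjusted p-values of 0.0608 and 0.0583. Foxo3 footprints were 42.6, 43.9, 39.8, 29.3 and 30.7 CPM with DMSO and 60.1, 64.3 and 72.8 CPM with torin 1, also without overlap, and rose by 0.79 ± 0.13 (adjusted p = 0.00117). In footprints of replicates 1 to 3 alone neither was called, at 1.18 ± 0.26 for Btg1 (adjusted p = 0.0711, edgeR) and 0.68 ± 0.16 for Foxo3 (adjusted p = 0.101). Foxo3 RNA rose from 26.0, 28.2 and 24.5 CPM to 53.7, 51.2 and 50.2 CPM, by 0.98 ± 0.09 (adjusted p = 0.00282).

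The call of Txnip in Ctu1 iKO cells turned on the fit. Its footprints were 15.8, 6.33, 19.8, 17.0 and 14.0 CPM with DMSO and 18.8, 27.2 and 40.9 CPM (lowest, median, highest) with torin 1, with an overlap, and the log2 difference was 0.91 ± 0.27 (SE; adjusted p = 0.0582, edgeR). Without Ctu1 iKO torin 1 replicate 1 or 2, the adjusted p was 0.0363 and 0.048. In RNA, Txnip stood at 23.7, 14.7 and 27 CPM with DMSO and 44.0, 30.6 and 36.5 CPM with torin 1, without overlap, where 14.3% of all tested genes were higher without overlap. This RNA difference was 0.77 ± 0.24 (adjusted p = 0.0946), and 0.79 ± 0.11 (adjusted p = 0.000664) with the replicate block.

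Foxo1 and Arrdc3 were not called in Ctu1 iKO cells by the fits without a replicate term. Foxo1 differed by 0.25 ± 0.29 (SE, log2) in footprints, and its RNA was 4.1, 3.7 and 4.11 CPM with DMSO and 6.02, 5.53 and 4.43 CPM with torin 1 (0.42 ± 0.15, adjusted p = 0.137, edgeR). Arrdc3 differed by 0.41 ± 0.24 in footprints, and its RNA ranged from 19.7 to 40.0 CPM with DMSO and from 30.1 to 38.8 CPM with torin 1 (0.38 ± 0.28, adjusted p = 0.464). With the replicate block the RNA differences were 0.41 ± 0.12 for Foxo1 (adjusted p = 0.0288) and 0.45 ± 0.14 for Arrdc3 (adjusted p = 0.0306). Without Ctu1 iKO DMSO replicate 3, in which Arrdc3 RNA was highest, the Arrdc3 difference was 0.81 (adjusted p = 0.0372).

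The torin 1 effects in the 2 genotypes were compared with an interaction term. None of the 6 members was called in footprints, where 0.639% of all tested genes were, or in RNA, where 0% were (edgeR). No member had an unadjusted p under 0.05, and DESeq2 called none. The torin 1 effect on Ccng2 in Ctu1 iKO cells exceeded that in control cells by 0.06 (log2, 95% interval -0.60 to 0.71) in footprints and by -0.16 (-0.62 to 0.31) in RNA. For Txnip the differences were -0.04 (-0.75 to 0.68) and -0.03 (-0.75 to 0.68), and for Btg1 0.22 (-0.15 to 0.59) and -0.21 (-0.53 to 0.11). These intervals are wide beside the torin 1 effect on Txnip itself.

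**Figure D4:**
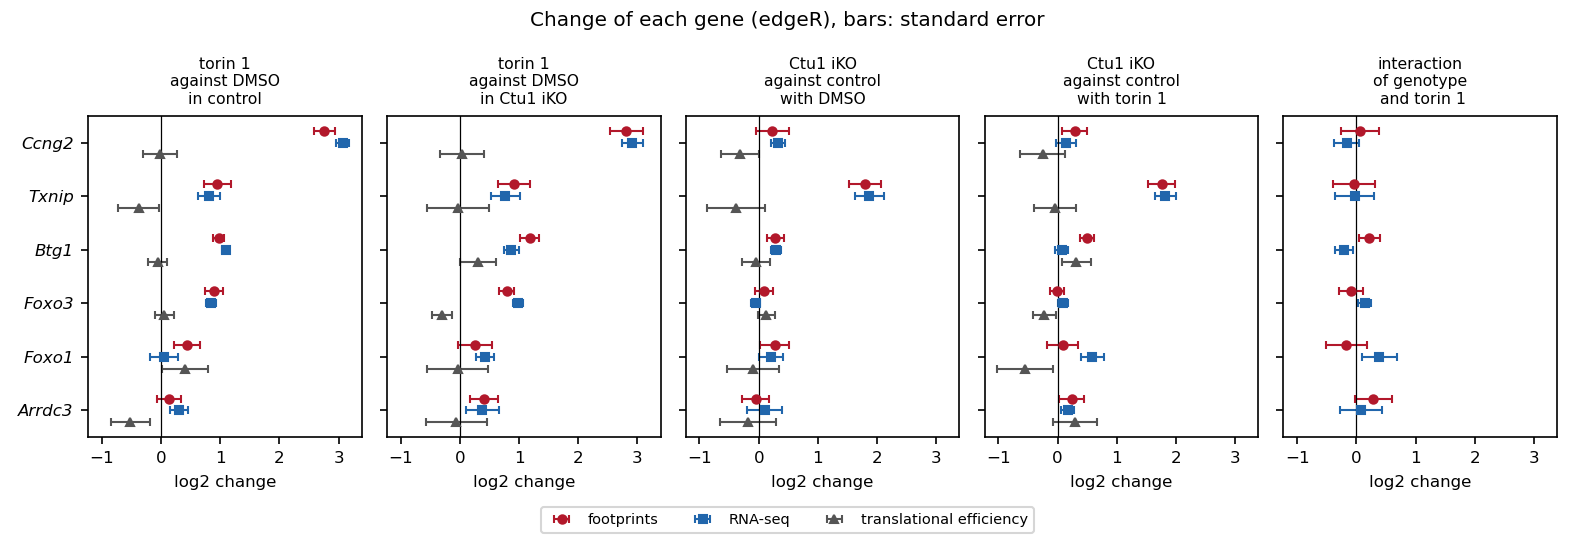
Log2 change with its standard error (horizontal axis) of the 6 members in each comparison, for footprints (all replicates), RNA-seq and translational efficiency (both replicates 1 to 3). In footprints and RNA, Ccng2 lies between 2.76 and 3.07 with torin 1 in both genotypes, and Txnip lies between 1.76 and 1.87 for Ctu1 iKO against control with either treatment.

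Between genotypes, Txnip stood apart from the other members. With DMSO its footprints were 2.63, 4.23 and 6.0 CPM (lowest, median, highest) in control and 15.8, 6.33, 19.8, 17.0 and 14.0 CPM in Ctu1 iKO cultures, without overlap, where 2.35% of all tested genes were higher without overlap. The log2 difference was 1.80 ± 0.27 (SE), a 3.48-fold higher level, and in RNA (7.18, 4.61 and 6.11 against 23.7, 14.7 and 27 CPM) it was 1.87 ± 0.25, or 3.65-fold. Ctu1 iKO replicate 2 was the lowest of replicates 1 to 3 in both assays, and footprints of these replicates alone gave 1.48 ± 0.40. Of all tested genes, 1.63% were called higher in footprints and 3.32% in RNA. The other members differed by -0.05 to 0.28 in footprints and by -0.05 to 0.32 in RNA. Of these, Btg1 (0.29 ± 0.09) and Ccng2 (0.32 ± 0.12) had RNA groups without overlap, where 16.2% of all tested genes were higher without overlap.

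With torin 1, 2 of 6 members had higher footprints in Ctu1 iKO than in control cells, Txnip and Btg1, where 2.23% of all tested genes were called higher. In RNA 1 of 6 was higher, Txnip, where 0.953% were. The same torin 1 cultures also enter the comparisons of torin 1 with DMSO above. Txnip footprints were 4.97, 7.82 and 11.4 CPM in control and 18.8, 27.2 and 40.9 CPM in Ctu1 iKO cultures (lowest, median, highest). The groups did not overlap, where 1.84% of all tested genes were higher without overlap, with a log2 difference of 1.76 ± 0.23 (SE; 3.39-fold, adjusted p = 0.000258, edgeR), and over replicates 1 to 3 it was 1.78 ± 0.32 (adjusted p = 0.154). Txnip RNA was 11, 8.71 and 12 CPM in control and 44.0, 30.6 and 36.5 CPM in Ctu1 iKO cells (1.82 ± 0.18, adjusted p = 0.0194). Leaving out control torin 1 replicate 1, 2 or 3, or Ctu1 iKO torin 1 replicate 2, gave adjusted p-values of 0.0685 to 0.142 for this RNA difference, and replicates 1 and 2 alone gave 0.0513.

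Btg1 footprints with torin 1 were 51.6, 59.4 and 65.5 CPM in control and 59.3, 86.2 and 93.6 CPM in Ctu1 iKO cultures (lowest, median, highest), overlapping at Ctu1 iKO replicate 2. The log2 difference was 0.50 ± 0.12 (SE; 1.41-fold, adjusted p = 0.0286, edgeR). Leaving out any 1 of Ctu1 iKO replicates 3 to 6 or control replicates 2 to 5 gave an adjusted p of 0.052 to 0.0727. Replicates 1 to 3 alone gave 0.40 ± 0.21 (adjusted p = 0.679) and replicates 4 to 6 alone 0.58 ± 0.12 (adjusted p = 0.0501). In RNA, Btg1 differed by 0.07 ± 0.11 (adjusted p = 0.767). Foxo1 RNA was 4.08, 3.82 and 2.82 CPM in control and 6.02, 5.53 and 4.43 CPM in Ctu1 iKO cells with torin 1, without overlap (14% of all tested genes were higher without overlap in RNA). This was a difference of 0.59 ± 0.19 (adjusted p = 0.151), and of 0.60 ± 0.11 (adjusted p = 0.00404) with the replicate block.

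Translational efficiency, the footprint change relative to the RNA change, was fitted over replicates 1 to 3. No member was called with torin 1 in control cells, where 1.18% of all tested genes were, in Ctu1 iKO cells (1.77%) or between genotypes with torin 1 (0.114%), no member had an unadjusted p under 0.05 in these, and DESeq2 called none. In control cells the efficiency of Ccng2 differed by -0.02 ± 0.29 (SE, log2; 95% interval -0.64 to 0.60) and that of Btg1 by -0.06 ± 0.16 (-0.42 to 0.30). The members spread from -0.52 ± 0.33 for Arrdc3 to 0.41 ± 0.39 for Foxo1. In Ctu1 iKO cells they spread from -0.30 ± 0.17 for Foxo3 to 0.31 ± 0.30 for Btg1. With DMSO 0% of all tested genes were called between genotypes. Between genotypes the efficiency of Txnip differed by -0.38 ± 0.49 with DMSO and -0.04 ± 0.36 with torin 1.

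**Figure D5:**
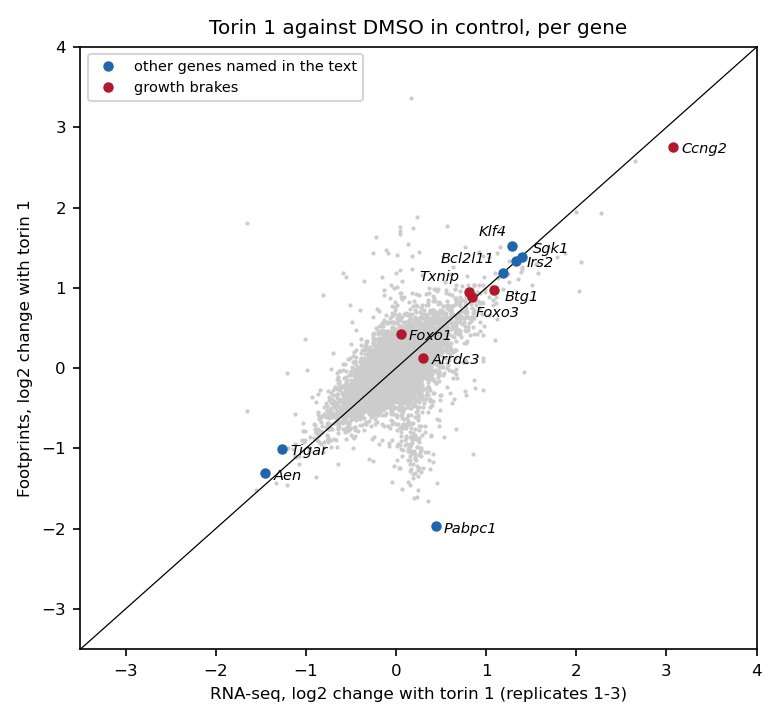
Log2 change with torin 1 in control cells in RNA (horizontal axis, replicates 1 to 3) and in footprints (vertical axis, all replicates), each point 1 gene, with the members and the other genes named in the text marked. Ccng2 lies at 3.07 in RNA and 2.76 in footprints, near the diagonal, and Pabpc1 lies far below it at 0.44 and -1.97.

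The order of the members by footprint CPM per kb of coding sequence changed with torin 1. In control cells with DMSO it was Btg1 (58.3 ± 5.3, SD, n = 6), Foxo3 (17.3 ± 3.19), Arrdc3 (7.75 ± 2.08), Txnip (3.53 ± 0.957), Ccng2 (2.61 ± 0.518) and Foxo1 (1.62 ± 0.188). Only the neighbours Txnip and Ccng2 overlapped in this order. With torin 1 Ccng2 stood at rank 3, with 17.7 ± 3.81, above Arrdc3 (8.43 ± 2.05) and Txnip (6.8 ± 1.89), which overlapped. In Ctu1 iKO cells with torin 1, Foxo3 (32.1 ± 2.35, n = 6), Txnip (23.1 ± 7.02) and Ccng2 (21.5 ± 6.57) overlapped with one another below Btg1 (161 ± 24.6). With DMSO in those cells Txnip stood at rank 3 with 12.2 ± 4.25 (n = 5), overlapping Foxo3 above it (18.5 ± 3.39) and Arrdc3 below it (7.46 ± 2.55).

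Other genes of these pathways were described from lists drawn up with earlier results of the data known. Of 22 tested FoxO targets other than the members, 11 rose in footprints and 10 in RNA with torin 1 in control cells, and none fell, with medians of 0.44 and 0.33. These are 50% and 45.5% of the list, where 2.91% and 5.69% of all tested genes were called higher and 4.33% and 7.4% lower. Among them were Klf4, a transcription factor of growth arrest (1.52 ± 0.17 in footprints and 1.29 ± 0.08 in RNA, log2 ± SE), Irs2, an adaptor of the insulin receptor (1.34 ± 0.17 and 1.33 ± 0.08), and Bcl2l11, which encodes the pro-apoptotic Bim (1.18 ± 0.14 and 1.19 ± 0.08). In Ctu1 iKO cells, 10 of the 22 rose in footprints and 7 in RNA, where 3.48% and 3.73% of all tested genes were called higher.

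Of 22 tested regulators of FoxO factors and their relatives, 1 rose and 1 fell in footprints of control cells (4.55% each way, against 2.91% higher and 4.33% lower of all tested genes). In RNA 3 rose (13.6%, against 5.69%) and 4 fell (18.2%, against 7.4%), with medians of 0.15 and -0.01. Sgk1, a kinase that like AKT phosphorylates FoxO factors, rose by 1.38 ± 0.14 in footprints and 1.40 ± 0.06 in RNA (log2 ± SE). Rictor, the defining subunit of mTOR complex 2, rose by 0.71 ± 0.06 in RNA. Skp2, a ubiquitin ligase subunit that promotes cell cycle entry, fell by 0.64 ± 0.11 in footprints and fell by 0.59 ± 0.07 in RNA.

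Relatives and partners of the members are set against the same shares of all tested genes (2.91% higher and 4.33% lower in footprints, 5.69% and 7.4% in RNA). Of 12 tested genes of the cyclin G family and its PP2A partners, Gak rose in footprints (0.31 ± 0.09, log2 ± SE) and Ccni in RNA (0.39 ± 0.10) with torin 1 in control cells, 8.33% of the list in each assay. Of 10 alpha-arrestins and ubiquitin ligases, none was called in control cells in either assay. Among 12 genes of thioredoxin, Mlx and glucose uptake, Klf10, a glucose-responsive repressor, rose by 0.61 ± 0.17 in footprints and 0.71 ± 0.13 in RNA. Hk2, a hexokinase, fell by 1.03 ± 0.20 and Mlxip, which encodes MondoA, fell by 0.43 ± 0.07, both in RNA (2 of 12, 16.7%), and Vdac1 fell by 0.25 ± 0.07 in footprints. Of 19 genes of the BTG and TOB family and the CCR4-NOT deadenylase, only Pabpc1, the poly(A)-binding protein, was called. Its footprints fell by 1.97 ± 0.15 while its RNA rose by 0.44 ± 0.07, and its translational efficiency fell by 2.48 ± 0.29 (adjusted p = 0.00057, edgeR).

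Of 13 p53 targets tested with torin 1 in control cells, 1 rose (7.69%) and 2 fell (15.4%) in footprints, where 2.91% and 4.33% of all tested genes did, and in RNA none rose and 3 fell (23.1%, against 7.4% of all tested genes). Aen, a nuclease, fell by 1.31 ± 0.26 in footprints (SE, log2) and fell by 1.45 ± 0.09 in RNA. Tigar fell by 1.01 ± 0.26 in footprints and fell by 1.26 ± 0.13 in RNA, and Zmat3 fell by 0.63 ± 0.13 in RNA. Of 20 immediate-early genes, 2 rose and 2 fell in footprints (10% each way, against 2.91% and 4.33% of all tested genes), and in RNA 6 rose (30%, against 5.69%) and 1 fell (5%, against 7.4%). Dusp4, a MAP kinase phosphatase, rose by 1.03 ± 0.13 and 0.92 ± 0.11, Egr2 by 0.97 ± 0.12 in RNA and Ier5 by 0.86 ± 0.08 in RNA. Ccn1 fell by 0.80 ± 0.20 in footprints and fell by 0.82 ± 0.11 in RNA, and Myc fell by 0.39 ± 0.10 in footprints.

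Over the 23 footprint libraries and 8855 genes, log2 CPM of Ccng2 correlated best with Hbp1 (Pearson r = 0.943), Crebrf (0.937), Spred1 (0.936), Klhl24 (0.936) and Smcr8 (0.933). Over the 12 RNA-seq libraries and 9491 genes, the first were Sgk1 (0.994), Crebrf (0.993), Pnrc1 (0.992), Rpl3 (0.990) and Klhl24 (0.989). Hbp1 footprints rose by 1.95 (log2) and Crebrf footprints by 2.58 with torin 1 in control cells. Rpl3, a ribosomal protein gene, rose by 0.35 in RNA, while its footprints fell by 1.04, opposite to Ccng2. The best matches of Btg1 were Crebrf (0.942), Klhl24 (0.933), Nr1d2 (0.920), Klf6 (0.918) and Kansl1 (0.914) in footprints and Ccng2 (0.981), Nr1d2 (0.981), Poli (0.979), Wwtr1 (0.977) and Pnrc1 (0.976) in RNA. These correlations describe libraries that share the treatment groups.

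Txnip had other matches. In footprints they were Gsto1 (r = 0.912), Nedd9 (0.906), Dpysl3 (0.904), S100a11 (0.898) and Grem1 (0.886), and in RNA Lbh (0.975), Gabarap (0.974), Ifi204 (0.974), Lgals8 (0.973) and Dusp3 (0.973). Among these, Gsto1 footprints were higher in Ctu1 iKO than in control cells with DMSO by 0.41 (log2) and Lbh RNA by 1.14. Txnip itself stood at rank 781 among the matches of Ccng2 in footprints (r = 0.531), where Btg1 stood at rank 9 (0.911) and Foxo3 at rank 48.

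RNA-seq replicates 4 to 6 departed from these values. In the libraries labelled control torin 1 replicates 5 and 6, Ccng2 was 7.63 and 7.46 CPM, while replicate 4 was at 45.3 CPM. Ccng2 was 49.4 and 54.7 CPM in replicates 4 and 5 of the group labelled Ctu1 iKO DMSO, above every other library labelled DMSO. The libraries labelled Ctu1 iKO torin 1 replicates 5 and 6 held 23.5 and 28.4 CPM, between the 2 treatments. Ccng2 footprints of the same cultures were 15.6 and 16.9 CPM in control torin 1 replicates 5 and 6, within the other 4 libraries of that label. They were 3.8 and 4.63 CPM in Ctu1 iKO DMSO replicates 4 and 5, the highest of all DMSO libraries but below every torin 1 library, of which the lowest was 11.6 CPM.

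The genotype labels of the same libraries also gave other levels of Txnip RNA. It was 20.1 and 16.8 CPM in the libraries labelled control torin 1 replicates 5 and 6, and 9.47 and 11.4 CPM in those labelled Ctu1 iKO torin 1 replicates 5 and 6, so that the order of the genotypes was turned around in these 4 libraries. Their Txnip footprints were 9.8 and 7.41 CPM in control and 29.2 and 25.1 CPM in Ctu1 iKO. With all replicates the RNA log2 change with torin 1 in Ctu1 iKO cells was 0.85 ± 0.59 (SE) for Ccng2, 0.33 ± 0.21 for Btg1 and 0.24 ± 0.24 for Foxo3, none of them called (adjusted p = 0.974 for each, edgeR). In control cells, replicates 4 to 6 alone gave 2.37 ± 0.64 for Ccng2 (adjusted p = 0.182), 0.62 ± 0.13 for Btg1 (0.135) and 0.57 ± 0.25 for Foxo3 (0.334). Txnip RNA kept its call there, at 16.4 to 20.1 CPM with torin 1 and 5.03 to 5.69 CPM with DMSO. Between genotypes with DMSO, where Ccng2 RNA differed by 0.32 ± 0.12 in replicates 1 to 3, the difference was 2.42 ± 0.57 with all replicates and 3.75 ± 0.12 in replicates 4 to 6 alone. With all replicates the RNA difference of Txnip between genotypes with torin 1 was 1.12 ± 0.37 (adjusted p = 0.95).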

How the data were processed

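Raw counts per gene were deposited by the authors in tables of DMSO and of torin 1 libraries, with no normalization. For footprints, the submitters' processing notes name cutadapt 3.4, UMI-tools 1.1.1 and STAR 2.5.3a, and for RNA-seq STAR, with the builds GRCm38 and mm10, whereas a human genome is named for the footprints in the paper's methods. The lowest maximum footprint count of a listed entry was 100, and 23 entries of 11 repeated symbols were left out. All RNA-seq counts were even. How molecular identifiers entered the counts is not given in the sources used here, and depth limits precision through counting error only in part. The variance between replicates was 21.1 to 139 times that of counting error in footprints and 38.3 to 1110 times in RNA-seq. These ranges cover all replicates, with the RNA-seq libraries on the other side from their label among them, and use the even RNA-seq counts as deposited.

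Genes whose counts averaged at least 10 across the libraries compared were fitted with edgeR 4.0.16 in R 4.3.3 (TMM, quasi-likelihood test), and translational efficiency as the interaction of assay and group, with TMM within each assay. Scripts were tested on simulated data. Levels used Python 3.11.15, pandas 2.3.3, numpy 2.4.6 and, for figures, matplotlib 3.10.9, and likeness used log2(CPM + 1). Members and lists were chosen with earlier results of these data known. Named genes were the members, Ctu1, for each list up to 3 genes that rose and 3 that fell most among those called with torin 1 in control cells (mean of at least 100 counts, groups without overlap), and the 5 genes most like Ccng2, Txnip and Btg1.

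Groups came from the labels. Same-numbered RNA-seq libraries deviated together in every comparison (r = 0.51 to 0.85). So did footprint libraries with torin 1 against DMSO in control (0.46 to 0.66) and between genotypes with torin 1 (0.34 to 0.58). In the other footprint comparisons r ranged from -0.10 to 0.51. The reported fits held no replicate term, so that their SE and p-values are unpaired, and the replicate block was run as an alternative. Alternatives were DESeq2 1.42.0, other normalizations and filters, the replicate block, other replicates and each library left out. Leaving out libraries where 6 footprint libraries faced 6 was added after seeing the data.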

Additional observations from a re-analysis of the deposited data

Results flagged for a closer look

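Of 48 groups of 4 to 10 libraries, 2 held a library far from the others of its group for a member, and chance gives about 1 in 20. Btg1 footprints in Ctu1 iKO torin 1 replicate 2 were the lowest of 6, at 59.3 CPM, while the nearest was 81.0 and the highest 93.6 CPM (gap over range of log2 CPM 0.683). Ccng2 footprints in control torin 1 replicate 1 were the highest of 6, at 26.0 CPM, while the nearest was 18.3 and the lowest 15.3 CPM (0.662, also on log2 CPM).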

How the results depend on the processing

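Of the counts of members called, 229 values under the alternatives were within 1.5 times of the reported count and 31 were not. For RNA with torin 1 in control cells (4 called), replicates 4 to 6 alone gave 1. For RNA with torin 1 in Ctu1 iKO cells (3), all replicates and replicates 4 to 6 alone gave 0. For RNA between genotypes with torin 1 (1), DESeq2 gave 2, and all replicates, replicates 1 and 2 alone and replicates 4 to 6 alone gave 0. Between genotypes with DMSO, the contrast used in choosing the genes, counts past the same threshold are a description from which no test is read. There the RNA count was 1, with DESeq2 2, and with all replicates or replicates 4 to 6 alone 5. Of all tested genes, 336 of 10119 were past it and higher in the reported fit, and 842 with DESeq2. With all replicates it was 1458 of 10128, and with replicates 4 to 6 alone 2203 of 10136. Footprints of replicates 1 to 3 gave 0 between genotypes with DMSO (1 with all replicates), 0 with torin 1 (reported 2) and 1 with torin 1 in Ctu1 iKO cells (reported 3), and replicates 4 to 6 alone gave 1 between genotypes with torin 1. Of 1560 values of single genes under an alternative, 104 differed in sign from the reported value, called or not. With a call on either side, the sign turned for Foxo3 RNA between genotypes with DMSO (0.68 with all replicates, 1.41 with replicates 4 to 6 alone, against -0.05) and, with torin 1 in Ctu1 iKO cells in replicates 4 to 6 alone, for the RNA of Ccng2 (-0.45), Btg1 (-0.28) and Foxo3 (-0.53). These settings hold the libraries that lay on the other side from their label, and the cause was not tested.

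Leaving out 1 library gave 3 to 4 members for RNA with torin 1 in control, 2 to 4 in Ctu1 iKO, 0 to 1 between genotypes with DMSO (0 without Ctu1 iKO DMSO replicate 1 or control DMSO replicate 2) and 0 to 1 with torin 1. In footprints it gave 4, 3 to 4, 1, and 1 to 2 in the same order.

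With the replicate block, the RNA counts were 6 with torin 1 in Ctu1 iKO cells (Txnip, Arrdc3 and Foxo1 added), 3 between genotypes with DMSO (Ccng2 and Btg1 added) and 2 with torin 1 (Foxo1 added). Over all tested genes, 1641 of 9619, 1450 of 10119 and 1671 of 9650 were then called higher in the same order. In the reported fits it was 359, 336 and 92. The count with DMSO is again a description, as that contrast was used in choosing the genes. The block also added Arrdc3 in RNA of control cells and, where numbers did not pair, Txnip footprints with torin 1 in Ctu1 iKO cells (0.97 ± 0.20, adjusted p = 0.0134, edgeR), and changed no other call. Those Txnip footprints were also called by DESeq2 (adjusted p = 0.0119), with all 4 groups in 1 fit (0.0187), with a term for replicates 1 and 2 (0.0151), with library totals (0.0354) and in replicates 4 to 6 alone (0.0383).

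Counts over all genes varied more, both under other settings and when 1 library was left out. With torin 1 in control cells, 1259 genes were called in RNA, 4206 with the block, 10 in replicates 4 to 6 alone and 412 without control DMSO replicate 2. In footprints 714 were called, 2019 with the block, 138 in replicates 1 to 3 and 559 to 737 with 1 library left out. In Ctu1 iKO cells the RNA count of 794 ranged from 0 (all replicates) to 3378 (block), with 123 without Ctu1 iKO DMSO replicate 1, and the footprint count of 788 from 178 to 1368, with 527 to 921 when 1 library was left out. Between genotypes with DMSO the RNA count of 518 ranged from 473 to 4431 under other settings and fell to 0 without control DMSO replicate 2, and the footprint count of 277 ranged from 2 to 737, with 144 without control DMSO replicate 3. With torin 1 the RNA count of 126 ranged from 0 to 3162, with 1 to 406 when 1 library was left out (1 without Ctu1 iKO torin 1 replicate 2, 406 without Ctu1 iKO torin 1 replicate 3), and the footprint count of 479 from 1 to 1425, with 301 without control torin 1 replicate 6. For the interaction they ranged from 2 to 139 in footprints (reported 63) and from 0 to 3 in RNA (reported 0). For translational efficiency the reported 113, 170, 0 and 11 ranged under other settings from 95 to 227, from 153 to 316, from 0 to 21 and from 3 to 114, and with 1 culture left out were lowest at 63 (without control DMSO replicate 2), 105 (without Ctu1 iKO DMSO replicate 1), 0 and 0 (without control torin 1 replicate 2).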

Other observations

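For each member, the 11 RNA-seq libraries of replicates 4 to 6 were set against the mean log2 level of each group in replicates 1 to 3. The nearest mean was that of the labelled group for 5 of 11 libraries with Ccng2 and Arrdc3, for 4 with Btg1, Foxo1 and Txnip and for 1 with Foxo3.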
